A study of Mus musculus with 12 samples.

Results

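How the liver's small RNAs answered a diet labelled HFCF was compared between a shorter and a longer feeding period, to see which responses came early, came late or turned round. The quantity described is the difference of 2 diet effects. It is HFCF minus chow after 3 months on the diet, minus HFCF minus chow after 1 month, on the log2 scale; a positive value means that HFCF livers stood higher against chow at 3 months than at 1 month. All 12 libraries of the series entered it, 3 in each of 4 groups. Each library came from the liver of a wild-type male C57BL/6 mouse. The first group ate chow for 1 month and was 3 months old, and the second ate HFCF for 1 month and was 3 months old. The third ate chow for 3 months and was 6 months old, and the fourth ate HFCF for 3 months and was 6 months old. Time on the diet and age therefore cannot be told apart, and neither can the age at which feeding began. The labels do not spell out HFCF, and the series' title names experimental nonalcoholic steatohepatitis, a fatty and inflamed liver.

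A microRNA (miRNA) is a short RNA cut from a hairpin precursor. It guides the silencing complex to messenger RNAs that match its seed, bases 2 to 8, and lowers their stability or translation. In liver, miRNAs take part in lipid, sterol and glucose metabolism and in the response to injury. Reads on protein-coding genes in such a library are short fragments of messenger RNA; they follow the message only loosely.

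The table gave read counts per gene for 259 miRNA loci and for 2765 protein-coding genes that do not overlap a small RNA gene. Of these, 227 loci and 1527 genes had enough reads to be tested, and each class was fitted by itself with edgeR. A library held 1434214 to 3122907 reads on miRNA loci but only 30880 to 100042 on the protein-coding genes, so the second class was measured less precisely. The median standard error (SE) of the difference was 0.32 on the log2 scale for miRNA loci and 0.51 for protein-coding genes. Levels are CPM, counts scaled to a common library size within the class by TMM, and a difference was called when its Benjamini-Hochberg adjusted p in edgeR's quasi-likelihood test was under 0.05. All 6 protein-coding hepatocyte markers, Alb, Apoa1, Ttr, Serpina1c, Cps1 and Tat, were present. Their summed level was 92300 to 113000 CPM in chow and 67300 to 85900 CPM in HFCF livers of 1 month. At 3 months it was 78200 to 84700 CPM in chow and 59200 to 64900 CPM in HFCF livers. The HFCF sums thus lay below those of chow without overlap at both times. The acinar pancreas markers Prss2, Cela1, Cpa1 and Pnlip had no row in the table.

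A chow library of 1 month, replicate 2, stood apart in a few miRNAs. Its level of Mir375, which endocrine cells such as those of the islets make, was 44.7 CPM, while the remaining 11 libraries lay between 2.21 and 5.37 CPM. Mir10b stood at 1389 CPM against 33.1 to 169 CPM elsewhere, and Mir200c, an epithelial miRNA, at 262 CPM against 42.7 to 83.9 CPM. At 3 months, HFCF replicate 1 was the HFCF library nearest to chow at 10 of the 20 loci that were higher and at 20 of the 32 that were lower. Values without one of these libraries are given where leaving it out changes the call of a named difference, or moves the median of a described list by over 1.5 times. HFCF replicate 1 was singled out by these same values, and leaving out the library nearest to chow tends to enlarge the effect at 3 months. Calls gained that way are no separate support for a difference. Among protein-coding genes it was nearest to chow at 3 of the 15 that were higher and 8 of the 24 that were lower.

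The mature sequences below belong to the loci on which the comparison turns. They are shown because the pair with a called difference, and the loci that came closest to it, share no seed among themselves, whereas neighbours in their families do. Sequences are from RefSeq (GRCm38.p6), which held a hairpin for 196 of the 227 tested loci, and capitals mark the seed. Because each hairpin has a single count, the level of an arm cannot be given. Both arms are given for Mir205 and Mir741, the loci with a called difference, and for Mir582, which had the largest positive value among the named loci.
miR-205-5p: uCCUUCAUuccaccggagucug
miR-205-3p: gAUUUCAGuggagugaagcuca
miR-741-5p: uACGUAGAuugguaccuaucaug
miR-741-3p: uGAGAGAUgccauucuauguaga
miR-582-5p: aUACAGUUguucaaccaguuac
miR-582-3p: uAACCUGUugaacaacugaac
For 5 further loci with a small p for the difference, 1 arm each is printed.
miR-149-5p: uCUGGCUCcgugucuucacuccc
miR-183-5p: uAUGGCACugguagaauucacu
miR-676-3p: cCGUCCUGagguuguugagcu
miR-223-3p: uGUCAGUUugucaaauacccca
miR-34a-5p: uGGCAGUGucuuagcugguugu
The last 4 show seeds shared within a family. miR-181b-5p and miR-181d-5p have the seed ACAUUCA, and miR-743a-5p and miR-871-5p, which lie near miR-741 on the X chromosome, have the seed AUUCAGA.
miR-181b-5p: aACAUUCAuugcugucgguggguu
miR-181d-5p: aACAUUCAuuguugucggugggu
miR-743a-5p: uAUUCAGAuuggugccugucau
miR-871-5p: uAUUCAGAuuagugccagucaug

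Among miRNA loci the diet effect was far more widespread at 3 months than at 1 month, but few single loci had a difference between times that passed the test. At 1 month 7 of 227 loci were called (3.08%), and all 7 were lower in HFCF liver. At 3 months 52 loci were called (22.9%), 20 of them higher (8.81%) and 32 lower (14.1%); scaled by library totals, 59 were higher and 18 lower. The difference itself was called for 2 loci (0.881%), Mir205 with a positive value (0.441%) and Mir741 with a negative value (0.441%). A further 7 loci had an adjusted p between 0.05 and 0.1, and 43 loci had an unadjusted p under 0.05, of which 25 were positive and 18 negative. Of the 52 loci called at 3 months, 50 had a larger diet effect at 3 months than at 1 month, but being called at 3 months favours this and it was not tested as a set. Across the 227 loci the diet effects at both times had a Pearson r of 0.47 and a Spearman rho of 0.39. The count of called differences depended on single libraries. It was 28 without HFCF replicate 1 at 3 months and 1 (Mir149) without HFCF replicate 2 at 1 month. It was 0 without chow replicate 3 or HFCF replicate 1 at 1 month, without chow replicate 1, 2 or 3 at 3 months, and without HFCF replicate 2 or 3 at 3 months. DESeq2 called 17 loci and limma-voom 0. The counts at single times moved too. At 1 month 24 loci were called without chow replicate 3 of that time and 3 without HFCF replicate 3, and 4 without chow replicate 2 of 1 month, chow replicate 2 or 3 of 3 months or HFCF replicate 3 of 3 months. At 3 months 20 were called without chow replicate 3 of that time, and 32 and 26 without HFCF replicates 2 and 3.

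**Figure D1:**
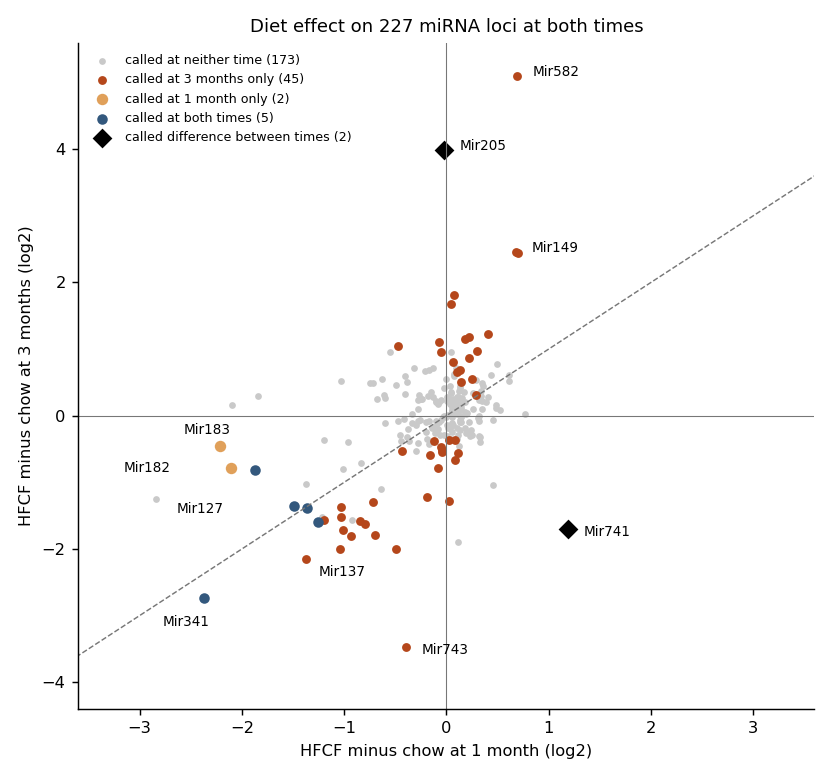
Diet effect (HFCF minus chow, log2) of each of the 227 tested miRNA loci at 1 month on the horizontal axis and at 3 months on the vertical axis; points are loci coloured by where they were called, and the dashed line marks equal effects. Mir205 (-0.03 at 1 month, 3.98 at 3 months) and Mir741 (1.19 and -1.70) are the loci with a called difference, Mir582 and Mir743 lie as far or farther from the line without one, and Mir182 and Mir183 are low at 1 month.

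The plot of both diet effects shows loci far from 0 at 3 months alone, at 1 month alone, and loci on the dashed line. The signs differed at 80 of 227 loci, and Mir741 alone among them had an unadjusted edgeR p under 0.05 at both times. Loci that differed over time within each diet were counted as well. These counts do not locate a difference, and they were not repeated under other scalings or without single libraries. Between 1 and 3 months 36 loci differed in HFCF livers (15.9%), 19 higher (8.37%) and 17 lower (7.49%) at 3 months. In chow livers 1 locus differed over the same time (0.441%), and it was Mir741.

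Mir205, a miRNA of stratified and glandular epithelia that is scarce in liver, was the locus with the smallest p. It lies at chr1:193507463-193507530 (mm10, minus strand) within an exon of 4631405K08Rik, a long non-coding RNA whose counts come from the same reads. Chow livers of 1 month held 6.04, 11.6 and 6.00 CPM, and HFCF livers of 1 month 4.69, 6.80 and 10.9 CPM. Chow livers of 3 months held 8.05, 4.84 and 4.42 CPM, and HFCF livers of 3 months 36.2, 139 and 90.8 CPM. The first 3 groups overlap one another, and all 3 HFCF livers of 3 months lie above every other library. Its diet effect was -0.03 ± 0.54 (log2 ± SE) at 1 month and 3.98 ± 0.51 at 3 months (edgeR adjusted p = 0.000287), so Mir205 rose late. The difference was 4.01 ± 0.75, with a 95% confidence interval of 2.39 to 5.62 (edgeR adjusted p = 0.0326). It stayed between 3.53 and 4.38 in 21 alternative fits, with adjusted p from 1.25e-05 to 0.152, and was called in 10 of them; without chow replicate 2 at 1 month it was 3.53 (edgeR adjusted p = 0.0602).

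Mir741, from a cluster of X-linked miRNAs known from testis, was the only locus whose diet effects had opposite signs with an unadjusted p under 0.05 at both times (0.441% of loci; 22 loci, 9.69%, had the same sign). It lies between annotated genes at chrX:66796805-66796875 (mm10, minus strand). Its levels were low, between 4 and 43 reads per library. Chow livers of 1 month held 1.42, 3.87 and 3.43 CPM and HFCF livers of 1 month 4.26, 8.59 and 6.18 CPM. Chow livers of 3 months held 10.1, 11.9 and 19.0 CPM and HFCF livers of 3 months 5.82, 4.22 and 2.83 CPM. HFCF lay above chow without overlap at 1 month and below chow without overlap at 3 months; groups did not overlap at 18.9% of loci at 1 month and at 39.2% at 3 months. HFCF minus chow was 1.19 ± 0.46 at 1 month, which was not called (edgeR adjusted p = 0.172), and -1.70 ± 0.39 at 3 months (edgeR adjusted p = 0.00962). The difference was -2.89 ± 0.60, with a 95% interval of -4.20 to -1.59 (edgeR adjusted p = 0.0436). Chow livers were higher at 3 months than at 1 month by 2.29 ± 0.43 (edgeR adjusted p = 0.0377), while HFCF livers differed over that time by -0.60 ± 0.41 (edgeR adjusted p = 0.353). The change over time was therefore called in chow and not in HFCF liver for this locus, the reverse of Mir205, where the change over time was -0.45 ± 0.58 in chow and 3.55 ± 0.48 in HFCF liver. The value for Mir741 ran from -3.25 to -2.53 over 21 alternative fits, with adjusted p from 0.00432 to 0.167, and it was called in 10.

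The neighbours of Mir741 were measured with few reads. Mir743, 20048 bp away, held 0 to 15 reads per library and none in HFCF replicate 3 of 3 months. Its reads in chow livers were 5, 4 and 6 at 1 month and 9, 10 and 15 at 3 months, and in HFCF livers 2, 8 and 3 at 1 month and 2, 2 and 0 at 3 months. Only the HFCF livers of 3 months lie below all chow livers of their time. Mir743 was called lower at 3 months (-3.47 ± 0.61, edgeR adjusted p = 0.00199), and its difference was -3.08 ± 0.87 (edgeR adjusted p = 0.0980); with 4 reads in the whole HFCF group these sizes depend on the prior count. The difference was called without HFCF replicate 1 of 3 months (-3.55, edgeR adjusted p = 0.0447). Mir871, which shares the seed of miR-743a-5p, had a difference of -1.50 ± 0.52 (edgeR adjusted p = 0.131), and Mir881 had -1.31 ± 0.54 (0.214). Mir880 and Mir883a, with -0.48 ± 0.74 and -0.46 ± 0.75, lay within 1 SE of 0. Every tested neighbour was thus negative, and none was called by edgeR with TMM and all libraries. Mir743b, Mir878 and Mir470 had too few reads to be tested.

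**Figure D2:**
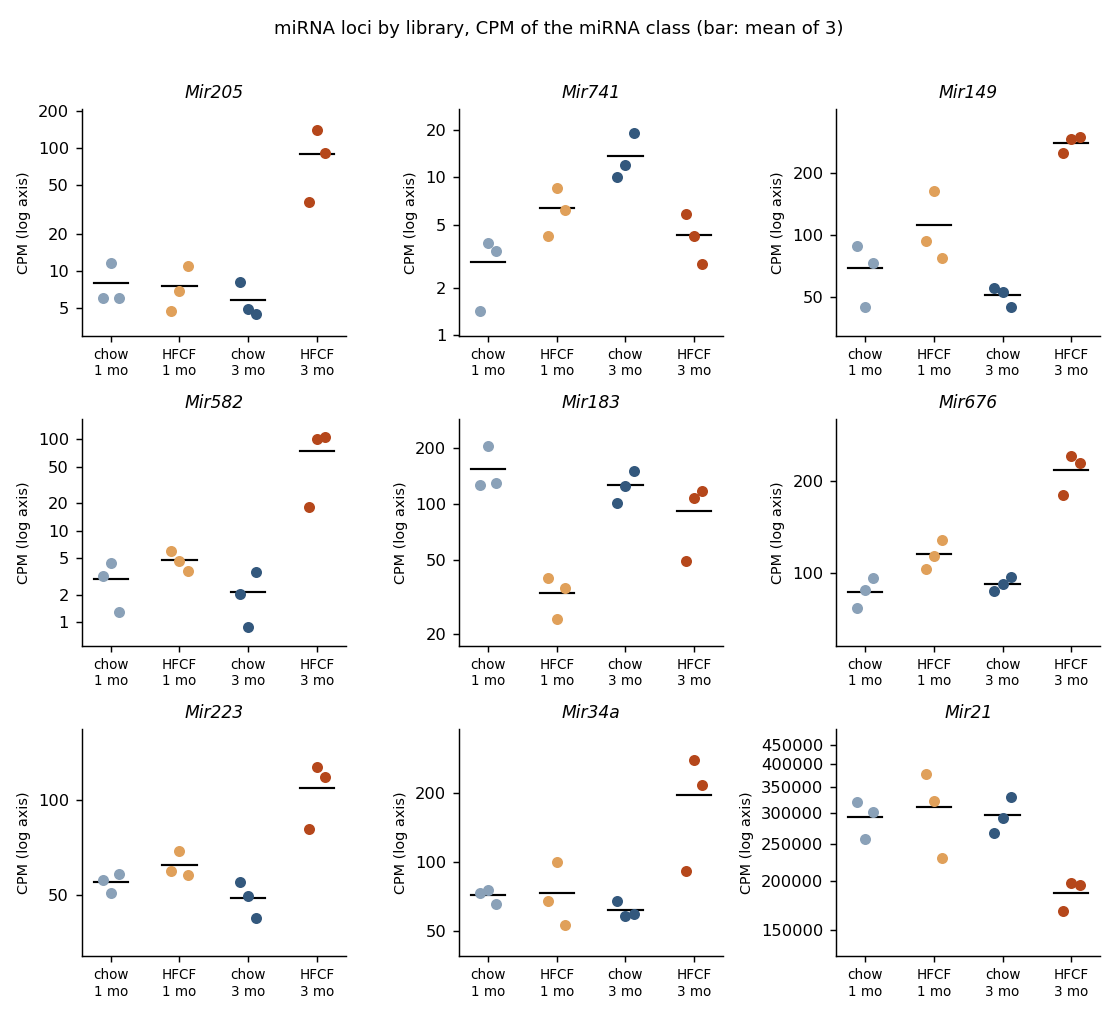
Level of 9 miRNA loci in each of the 12 libraries, in CPM of the miRNA class on a log axis; points are libraries, bars are means of 3, and colours mark the 4 groups. Mir205, Mir149, Mir582, Mir676, Mir223 and Mir34a are highest in HFCF livers of 3 months, Mir183 is lowest in HFCF livers of 1 month, and Mir741 is highest in chow livers of 3 months.

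Several further miRNAs were called higher at 3 months and not at 1 month, with a difference that did not reach the threshold. An effect called at one time and not at the other does not by itself show a difference between times. For these loci the edgeR test of the difference with TMM did not pass with all 12 libraries. On the same 12 libraries, DESeq2 and edgeR on library totals each called Mir149, Mir582, Mir676, Mir34a and Mir802, and library totals also called Mir335. These calls thus depended on the tool and the scaling. Without HFCF replicate 1 of 3 months the edgeR test with TMM passed for Mir149 (1.85, edgeR adjusted p = 0.0232), Mir582 (4.86, 0.00125), Mir676 (0.94, 0.0143), Mir34a (1.97, 0.00424) and Mir132 (1.27, 0.0447). It did not pass then for Mir335 (0.69, 0.0749) and Mir802 (0.98, 0.121). At each locus that passed without replicate 1, that library was the lowest HFCF liver of 3 months, so leaving it out favours passing. Mir149, in an intron of Gpc1 on chromosome 1 (92850378 to 92850443, plus strand), came nearest. Its levels were 88.5, 44.7 and 73.3 CPM in chow and 92.9, 163 and 77.5 CPM in HFCF livers of 1 month. At 3 months they were 55.0, 52.8 and 44.6 CPM in chow and 248, 292 and 296 CPM in HFCF livers. The groups overlap at 1 month and are far apart at 3 months. HFCF minus chow was 0.68 ± 0.28 at 1 month and 2.46 ± 0.29 at 3 months (edgeR adjusted p = 0.000287), and the difference was 1.77 ± 0.40 (95% interval 0.91 to 2.63, edgeR adjusted p = 0.0515). In 21 alternative fits Mir149 was called 5 times, with adjusted p from 0.000929 to 0.385. Among these was the fit without chow replicate 2 of 1 month (1.87, edgeR adjusted p = 0.0307).

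Mir582, inside Pde4d (a cAMP phosphodiesterase gene, intron) on chromosome 13 (109324744 to 109324824, plus strand), was nearly absent outside the last group. Chow livers held 1.28 to 4.42 CPM at 1 month and 0.880 to 3.53 CPM at 3 months, and HFCF livers of 1 month 3.64 to 5.97 CPM. HFCF livers of 3 months held 18.3, 101 and 105 CPM, above every other library, with replicate 1 far below the other 2. The diet effect at 3 months was 5.09 ± 0.69 (edgeR adjusted p = 0.000392). The difference of 4.40 ± 1.12 was larger than that of Mir205 but less precise (95% interval 1.98 to 6.82, edgeR adjusted p = 0.0820).

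Mir676, in an intron of the ectodysplasin gene Eda on the X chromosome (100381097 to 100381185, plus strand), moved less but with little spread. Chow livers of 1 month held 77.1, 88.4 and 96.4 CPM and HFCF livers of 1 month 104, 114 and 129 CPM. Chow livers of 3 months held 87.9, 92.4 and 97.1 CPM and HFCF livers of 3 months 180, 240 and 228 CPM. HFCF lay above chow without overlap at both times, and farther at 3 months. HFCF minus chow was 0.40 ± 0.15 at 1 month, not called, and 1.22 ± 0.15 at 3 months (edgeR adjusted p = 0.000287), and the difference was 0.82 ± 0.21 (edgeR adjusted p = 0.0820). Mir335, in an intron of Mest, was similar in form, with diet effects of 0.30 ± 0.16 and 0.96 ± 0.16, called at 3 months only (edgeR adjusted p = 0.00161), and a difference of 0.66 ± 0.22 (0.1204).

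Mir34a, a miRNA induced by p53, held 65.6 to 75.7 CPM in chow and 53.1 to 99.9 CPM in HFCF livers of 1 month. At 3 months it held 58.1 to 67.8 CPM in chow and 91.5, 279 and 217 CPM in HFCF livers. HFCF and chow overlap at 1 month and not at 3 months, where replicate 1 is again the lowest HFCF liver. Its diet effect was 0.04 ± 0.33 at 1 month and 1.67 ± 0.34 at 3 months (edgeR adjusted p = 0.00435), and the difference was 1.63 ± 0.47 (0.101). Mir802, a hepatocyte miRNA tied to glucose metabolism, had diet effects of -0.08 ± 0.26 and 1.10 ± 0.27, called at 3 months (edgeR adjusted p = 0.0125), and a difference of 1.18 ± 0.37 (0.107). In Mir802 the highest HFCF liver of 3 months was replicate 1, at 548 CPM against 384 and 365 CPM. Mir132, abundant in neurons and also made by immune cells, had 0.22 ± 0.34 and 1.18 ± 0.33, called at 3 months (edgeR adjusted p = 0.0202), and a difference of 0.96 ± 0.47 (0.311).

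The leukocyte miRNAs formed a list of 7, of which 6 were tested. At 3 months 3 of the 6 were called higher, against 8.81% of all loci, and 1 lower, against 14.1%; at 1 month none was called. Mir223, the miRNA of neutrophils and other myeloid cells, held 50.8 to 58.3 CPM in chow and 57.8 to 69.1 CPM in HFCF livers of 1 month. After 3 months it held 42.4 to 55.0 CPM in chow and 81.1, 128 and 119 CPM in HFCF livers, again with replicate 1 lowest and no overlap. Its difference was 0.98 ± 0.27 (edgeR adjusted p = 0.0820). Mir155, made by activated lymphocytes and macrophages, held 13.7 to 33.7 CPM in chow and 18.8 to 25.4 CPM in HFCF livers of 1 month, and 14.1 to 22.9 CPM against 39.1, 86.4 and 60.9 CPM at 3 months. Its difference was 1.73 ± 0.51 (edgeR adjusted p = 0.105), and Mir342 had 1.01 ± 0.30 (0.105). Without HFCF replicate 1 of 3 months the differences of Mir223 and Mir155 were 1.15 and 1.97 and were called (edgeR adjusted p = 0.0132 and 0.0360). With all libraries, both were also called with library totals and with DESeq2. Mir511, a macrophage miRNA, was the member called lower at 3 months (-0.60, edgeR adjusted p = 0.0307), and Mir142 and Mir150 had differences of 0.18 and 0.09.

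The median diet effect of the 6 was 0.09 at 1 month (-0.01 with library totals in place of TMM) and 0.70 at 3 months, and the median difference was 0.58, against 0.02 over all loci; with library totals these were 0.92 and 0.36. With TMM, the list summed to 1220 to 1490 CPM in HFCF livers of 1 month and 1150 to 1930 CPM at 3 months. Chow livers held 1050 to 1610 and 974 to 1240 CPM, so that the groups overlap at both times. With library totals the sums at 3 months were 1010 to 1210 CPM in chow and 1280 to 2250 CPM in HFCF livers, without overlap. In whole liver, more cells of a type and more RNA per cell cannot be told apart. The protein-coding leukocyte list gave little to set beside this: Cd68, Adgre1, Ptprc, Marco, Gpnmb and Itgam had no row in the table, and the 4 present summed to 307 to 380 and 301 to 327 CPM in chow and 211 to 653 and 369 to 775 CPM in HFCF livers of 1 and 3 months. Hbb-b1, a haemoglobin chain of red cells, held 168 to 266 CPM in chow and 197 to 257 CPM in HFCF livers of 1 month, and 64.6 to 144 CPM against 250 to 339 CPM at 3 months. It was called higher at 3 months (1.62 ± 0.48, edgeR adjusted p = 0.0492), with a difference of 1.63 ± 0.60 (0.306), on 3 to 21 reads per library. The 3 tested red cell miRNAs had a median difference of -0.17, which was 0.16 with library totals. The part of blood cells in these values was not tested.

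The loci with the smallest p at 1 month were the 3 members of the miR-183 cluster, a single transcript of chromosome 6 best known from sensory organs. Mir183 (30169668 to 30169737), Mir96 (30169446 to 30169551) and Mir182 (30165918 to 30165992) lie between genes on the minus strand. Mir183 held 127, 207 and 129 CPM in chow and 40.1, 23.99 and 35.3 CPM in HFCF livers of 1 month, and 101 to 152 CPM against 49.5, 107 and 118 CPM at 3 months. HFCF lay far below chow at 1 month, whereas 2 of 3 HFCF livers lay within the range of chow at 3 months. Its diet effect was -2.22 ± 0.33 at 1 month (edgeR adjusted p = 0.00185) and -0.46 ± 0.31 at 3 months, and the difference was 1.76 ± 0.45 (edgeR adjusted p = 0.0820). At an adjusted p under 0.1 for all 3 contrasts, Mir183 was the single locus that fell early and not late.

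Mir182 held 283, 527 and 388 CPM in chow and 111, 64.1 and 102 CPM in HFCF livers of 1 month, and 236, 304 and 397 CPM against 123, 197 and 221.7 CPM at 3 months. HFCF lay below chow without overlap at both times. The diet effects were -2.11 ± 0.30 (edgeR adjusted p = 0.00185) and -0.79 ± 0.29 (0.0674), and the difference was 1.32 ± 0.41 (0.105). Mir96 was called at both times, with -1.87 ± 0.29 and -0.81 ± 0.27 (edgeR adjusted p = 0.0477 at 3 months) and a difference of 1.06 ± 0.39 (0.152). None of the 3 differences was called by edgeR with TMM and all libraries. With all libraries, edgeR on library totals called all 3, and DESeq2 called Mir183 and Mir182. Chow livers differed little over time in these loci, by -0.28, -0.35 and 0.02 in Mir183, Mir182 and Mir96. HFCF livers were higher at 3 months than at 1 month in all 3, by 1.47 ± 0.33, 0.97 ± 0.29 and 1.09 ± 0.29 (edgeR adjusted p = 0.0139, 0.0413 and 0.0280). Without chow replicate 2 at 1 month, which held the most of Mir183, Mir182 and Mir96 in its group, the median difference of the 3 was 0.94 in place of 1.32, and Mir183 had 1.35 (edgeR adjusted p = 0.146). Without HFCF replicate 1 of 3 months the median was 1.55, and Mir183 (2.06, edgeR adjusted p = 0.00765) and Mir182 (1.55, 0.0442) were called.

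Other loci were lower in HFCF liver at both times by similar amounts. Apart from Mir96, the loci called at both times were Mir341, Mir127, Mir434 and Mir136, all from the imprinted Dlk1-Dio3 region of chromosome 12, whose miRNAs are made from the maternal allele. Mir127 (109592832 to 109592928, plus strand, opposite an exon of Rtl1) held 144, 188 and 65.6 CPM in chow and 47.3, 48.0 and 45.8 CPM in HFCF livers of 1 month. At the later time it held 90.6, 43.6 and 59.6 CPM in chow and 32.4, 17.5 and 25.4 CPM in HFCF livers. HFCF lay below chow at both times without overlap, and chow itself varied more than HFCF. The diet effects were -1.49 ± 0.36 and -1.36 ± 0.37 (edgeR adjusted p = 0.0381 and 0.0188). The difference was 0.13 ± 0.51, and its 95% interval of -0.98 to 1.24 still admits a change of about the size of the diet effect itself; its sign turned in 5 of 21 alternative fits.

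Mir136 had -1.253 ± 0.28 and -1.60 ± 0.31 and a difference of -0.35 ± 0.42 (edgeR adjusted p = 0.708), with a sign that turned when library totals replaced TMM. Mir434 had -1.37 and -1.39 and a difference of -0.02 ± 0.44. Mir341 fell from 22, 14 and 11 reads in chow to 2, 5 and 3 reads in HFCF livers of 1 month, and stood at 3, 4 and 4 reads against 1, 1 and 0 reads at 3 months, too few for the size of its difference to be read. Of the 17 tested loci of the region, 4 were called lower at 1 month, against 3.08% of all loci, and 12 at 3 months, against 14.1%. The median diet effect was -1.03 at 1 month and -1.56 at 3 months, and the median difference was -0.57, with 15 of 17 values negative and none called. With library totals the median difference was -0.21, against 0.36 over all loci.

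Some abundant miRNAs were called lower at 3 months by small amounts. Mir21, at chr11:86584067-86584158 in an exon of Vmp1, is known to rise in many injured tissues. It held 320300, 257700 and 301600 CPM in chow and 379000, 321200 and 229800 CPM in HFCF livers of 1 month. At 3 months it held 265600, 291800 and 329500 CPM in chow and 167500, 198000 and 195500 CPM in HFCF livers. HFCF overlapped chow at 1 month and lay below it without overlap at 3 months. The diet effect was 0.08 ± 0.16 at 1 month and -0.66 ± 0.16 at 3 months (edgeR adjusted p = 0.0135), so Mir21 fell at 3 months relative to the other miRNAs. The difference was -0.74 ± 0.23 (edgeR adjusted p = 0.105). The scaling bears on such sizes. When counts were scaled by library totals instead, the median difference of all 227 loci was 0.36, the count of called differences was 26, and 25 of those were positive. The difference of Mir21 was then -0.39 (edgeR adjusted p = 0.185). With DESeq2 it was called, as it was with TMM and edgeR without HFCF replicate 3 of 1 month (edgeR adjusted p = 0.0121). That library was the lowest HFCF liver of its time, so leaving it out favours a call.

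Mir101a and Mir101b, Mir29a, Mir30b and Mirlet7g were each called lower at 3 months (-0.56, -0.54, -0.37, -0.51 and -0.36, edgeR adjusted p = 0.0202, 0.0202, 0.0369, 0.0125 and 0.0235). None was called at 1 month. Their differences ran from -0.68 ± 0.22 for Mir101a to -0.39 ± 0.15 for Mirlet7g, with edgeR adjusted p of 0.116 and 0.155. Of the 10 tested let-7 loci, 1 was called lower at 3 months, Mirlet7g, against 14.1% of all loci. Mirlet7c-1 and Mirlet7a-1 were called higher at 3 months (0.66 and 0.51, edgeR adjusted p = 0.0184 and 0.0174), against 8.81%. The differences were positive at 7 of the 10 let-7 loci. The scaling moved the median difference of all loci from 0.02 with TMM to 0.36 with library totals. It also moved the median diet effect of all loci at 3 months, from 0.02 to 0.27. At 3 months the medians of the miR-29, miR-30 and hepatocyte miRNA lists were -0.335, -0.236 and -0.142 with TMM. With library totals they were -0.092, 0.0172 and 0.0881, so small falls at 3 months depend on the scaling. All 4 loci of the miR-29 family, which targets collagens and DNA methyltransferases, had negative differences (median -0.49), as had 8 of 9 hepatocyte miRNAs (median -0.37); with library totals these medians were -0.17 and -0.04. The miR-29 median was -0.79 without HFCF replicate 1 of 3 months. The medians of the miR-30, miR-17/92 with miR-106b/25 and miR-23/27/24 lists were -0.23, -0.15 and -0.12 and turned positive with library totals. Without HFCF replicate 1 of 3 months they were -0.39, -0.23 and 0.04, and without chow replicate 2 of 1 month -0.34, -0.33 and -0.23. Mir33, in an intron of Srebf2 and a regulator of cholesterol export, had diet effects of -0.93 ± 0.31 and -1.80 ± 0.32, called at 3 months only (edgeR adjusted p = 0.00204), and a difference of -0.87 ± 0.44 (0.314).

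The positive differences of several further lists rested to unlike degrees on chow replicate 2 of 1 month, the library that stood apart. The miR-181 family, active in lymphocytes and endothelium, had a median difference of 0.85, with 4 of 5 values positive. Without that library it was 0.66, again with 4 of 5 positive. Mir181b-2 held 8.95, 8.23 and 12.0 CPM in HFCF livers of 1 month and 19.5, 20.5 and 18.5 CPM in those of 3 months, against 9.95, 19.3 and 12.0 and 8.05, 11.9 and 7.95 CPM in chow. It was called higher at 3 months (1.05 ± 0.29, edgeR adjusted p = 0.0188), and its difference was 1.52 ± 0.41 (0.0820); an identical mature sequence is encoded at Mir181b-1, so the locus is uncertain as to copy. It was called without HFCF replicate 1 of 3 months (1.53, edgeR adjusted p = 0.0497). Mir181d had 1.246 ± 0.39 (edgeR adjusted p = 0.105). The epithelial miR-200 family had a median difference of 0.92, with 5 of 5 values positive. Without chow replicate 2 of 1 month it was 0.43, with 3 of 5 positive. The mesenchymal miRNAs had 0.50, with 6 of 6 positive, and -0.03 with 2 of 6 positive without it. Mir375 had 2.26 with it and 0.21 without it. By edgeR with TMM and all libraries, no locus of these lists was called for the difference. Mir181b-2 was called with library totals and with DESeq2, each on all libraries.

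**Figure D3:**
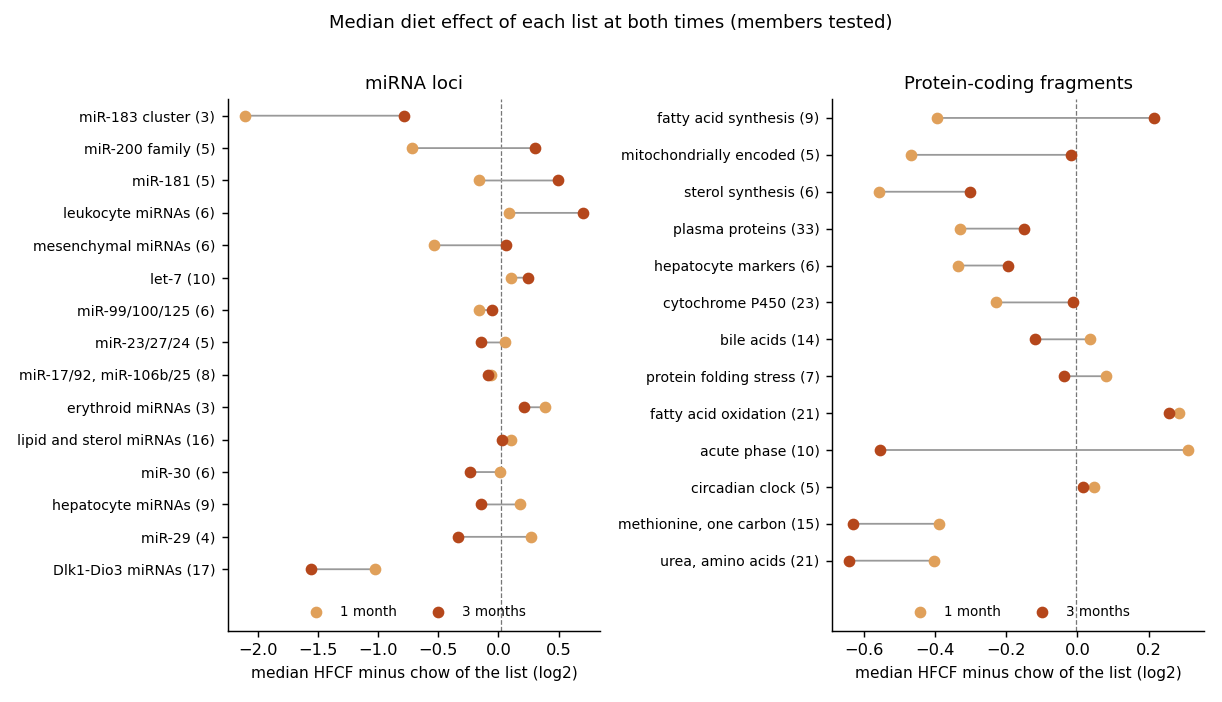
Median diet effect (HFCF minus chow, log2) of each list with at least 3 tested members at 1 month (light) and 3 months (dark), for miRNA loci on the left and protein-coding fragments on the right; the number of tested members is in brackets and the dashed line is the median of all features at 3 months. The miR-183 cluster moves from -2.11 to -0.79, the leukocyte miRNAs from 0.09 to 0.70 and the Dlk1-Dio3 miRNAs from -1.03 to -1.56.

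Protein-coding fragments also differed by diet at both times, but none had a called difference. At 1 month 28 of 1527 genes were called (1.83%), 17 higher (1.11%) and 11 lower (0.720%), and at 3 months 39 (2.55%), 15 higher (0.982%) and 24 lower (1.57%). Of these, 7 were called at both times, each in the same direction. The difference was called for 0 genes by edgeR (0%) and 0 by DESeq2, with a smallest edgeR adjusted p of 0.192, while limma-voom called 3 (Fos, Car3 and Scd1). At an unadjusted p under 0.05 there were 149 genes, 54 positive and 95 negative. At 1 month the count was 12 without HFCF replicate 2 and 15 without chow replicate 2 of that time, and at 3 months 17 without chow replicate 3 and 25 without HFCF replicate 2 or 3. For the difference, the edgeR count was 7 without HFCF replicate 3 of 1 month, 6 without HFCF replicate 1 of 3 months, and 1 each without chow replicate 2 of 1 month (Fos) and chow replicate 1 of 3 months (Car3). Over time, 59 genes differed in HFCF livers (3.86%), 14 higher and 45 lower (2.95%) at 3 months, and 13 in chow livers (0.851%). Across the 1527 genes the diet effects at both times had a Pearson r of 0.20.

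Car3, the muscle and liver carbonic anhydrase, had the smallest p. Chow livers held 319, 323 and 189 CPM at 1 month and 540, 327 and 280 CPM at 3 months. HFCF livers held 153, 504 and 665 CPM at 1 month and 2510, 2249 and 1976 CPM at 3 months. The groups overlap at 1 month, and every HFCF liver of 3 months lies above all other libraries. The diet effect was 0.69 ± 0.33 at 1 month and 2.61 ± 0.30 at 3 months (edgeR adjusted p = 1.65e-08). The difference was 1.92 ± 0.46, with a 95% interval of 0.99 to 2.85 (edgeR adjusted p = 0.192).

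Scd1, the stearoyl-CoA desaturase that makes monounsaturated fatty acids, was higher in HFCF liver at both times. It held 3350, 3188 and 2391 CPM in chow and 6557, 6552 and 14560 CPM in HFCF livers of 1 month. By 3 months it held 2269, 1825 and 2692 CPM in chow and 17550, 19840 and 32350 CPM in HFCF livers. HFCF lay above chow without overlap at both times, as 14.3% of genes differed without overlap at 1 month and 20.2% at 3 months. The diet effects were 1.63 ± 0.29 (edgeR adjusted p = 0.00584) and 3.36 ± 0.32 (edgeR adjusted p = 1.61e-06). The difference of 1.72 ± 0.42 was not called (edgeR adjusted p = 0.192). HFCF replicate 3 of 1 month stood far above the other HFCF livers of its time, and without it the difference was 2.25 and was called (edgeR adjusted p = 1.04e-06). Leaving out HFCF replicate 1 of 3 months gave 1.89, just past the threshold (edgeR adjusted p = 0.05 after rounding). In the list of 9 tested fatty acid synthesis genes, Scd1 was the only one called higher, at both times, against 1.11% and 0.982% of all genes. Lpin1, the phosphatidate phosphatase lipin 1, was called lower at 1 month, against 0.720%. The median diet effect of the list was -0.393 at 1 month and 0.215 at 3 months. Its median difference was 0.525, against -0.01 over all genes, with 6 of 9 values positive. Without chow replicate 2 of 1 month the medians were -0.624 at 1 month and 0.65 for the difference.

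**Figure D4:**
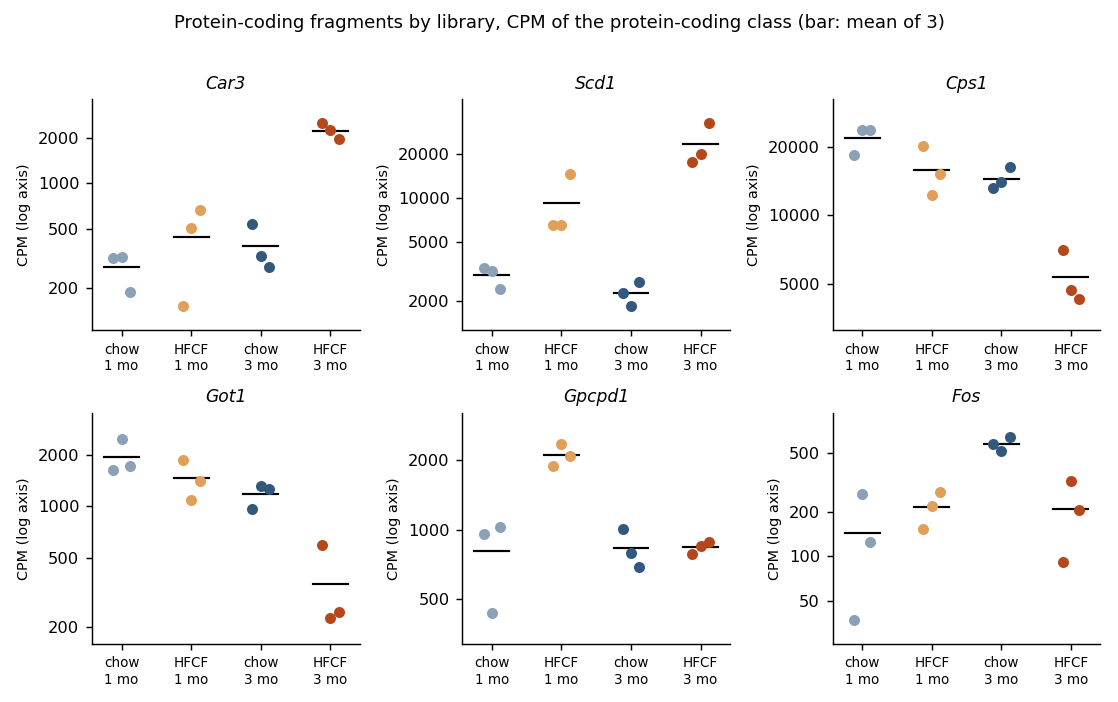
Level of 6 protein-coding fragments in each of the 12 libraries, in CPM of the protein-coding class on a log axis; points are libraries, bars are means of 3, and colours mark the 4 groups. Car3 and Scd1 are highest and Cps1 and Got1 lowest in HFCF livers of 3 months, Gpcpd1 is highest in HFCF livers of 1 month, and Fos is highest in chow livers of 3 months.

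Among genes of nitrogen disposal, Cps1 and Got1 were called lower at 3 months. Cps1, the first enzyme of the urea cycle, held 18490, 23800 and 23850 CPM in chow and 20190, 12290 and 15170 CPM in HFCF livers of 1 month. After 3 months it held 13260, 14030 and 16320 CPM in chow and 7048, 4673 and 4252 CPM in HFCF livers. The groups overlap at 1 month and are separate at 3 months, and chow itself differed over time by -0.60 ± 0.19, which was not called (edgeR adjusted p = 0.0914). The diet effect was -0.47 ± 0.19 at 1 month and -1.45 ± 0.20 at 3 months (edgeR adjusted p = 6.19e-07), and the difference was -0.98 ± 0.27 (0.192). Got1, the cytosolic aspartate aminotransferase, had -0.40 ± 0.23 and -1.75 ± 0.30 (edgeR adjusted p = 0.000134 at 3 months) and a difference of -1.35 ± 0.39 (0.207). Its HFCF livers of 3 months held 599, 225 and 245 CPM and all other libraries 973 to 2467 CPM. Without HFCF replicate 1 of 3 months the differences of Cps1 and Got1 were -1.24 and -1.93 and both were called (edgeR adjusted p = 0.0130 and 0.00875).

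Of 21 tested genes of the urea cycle and amino acid breakdown, 1 was called lower at 1 month (Tdo2) and 5 at 3 months (Cps1, Got1, Tat, Hal and Arg1), against 0.720% and 1.57% of all genes; none was called higher. Tat, the tyrosine aminotransferase, and Hal, the histidase, had differences of -0.85 ± 0.31 and -1.09 ± 0.41 (edgeR adjusted p = 0.300 and 0.313). The median diet effect of the list was -0.40 at 1 month and -0.64 at 3 months, and the median difference was -0.37, against -0.01 over all genes, with 15 of 21 values negative. Without chow replicate 2 of 1 month the medians were -0.21 at 1 month and -0.60 for the difference. Cps1 and Tat are also hepatocyte markers. The other 4 hepatocyte markers, Alb, Ttr, Serpina1c and Apoa1, had differences of 0.26, 0.23, 0.36 and 0.06, and none of them was called.

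Methionine and one-carbon genes included 2 with a difference at an unadjusted p under 0.05. Nnmt, which methylates nicotinamide, held 15 to 24 reads in chow and 10 to 22 reads in HFCF livers of 1 month. At 3 months it held 8 to 14 reads in chow and 2, 3 and 4 reads in HFCF livers. Its diet effect was -0.16 ± 0.31 at 1 month and -2.17 ± 0.49 at 3 months (edgeR adjusted p = 0.00396), and the difference was -2.01 ± 0.59 (0.209). Cth, the cystathionine gamma-lyase that makes cysteine, held 1907 to 2810 CPM in HFCF livers of 1 month and 783, 725 and 621 CPM in those of 3 months, with 1369 to 3397 CPM in chow. Its diet effects were -0.10 ± 0.21 and -1.19 ± 0.25 (edgeR adjusted p = 0.00166 at 3 months), and the difference was -1.09 ± 0.32 (0.237). Of 15 tested genes of the list, 1 was called lower at 1 month (Bhmt, betaine-homocysteine methyltransferase) and 5 at 3 months, Bhmt, Nnmt, Cth, Mat1a and Gnmt, against 0.720% and 1.57% of all genes. The median difference was -0.26, against -0.01 over all genes, with 11 of 15 values negative, and it was -0.43 without HFCF replicate 1 of 3 months.

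Other genes responded at 1 month. Gpcpd1, a glycerophosphocholine phosphodiesterase, held 957, 437 and 1028 CPM in chow and 1895, 2345 and 2085 CPM in HFCF livers of 1 month. In livers of 3 months it held 1009, 790 and 689 CPM in chow and 783, 850 and 884 CPM in HFCF livers. HFCF lay above chow without overlap at 1 month and within its range at 3 months. Its diet effect was 1.37 ± 0.23 at 1 month (edgeR adjusted p = 0.000277) and 0.05 ± 0.27 at 3 months, and the difference was -1.32 ± 0.36 (0.192). Chow differed by 0.00 over time, so the whole difference lay between the HFCF groups (-1.32 ± 0.24, edgeR adjusted p = 0.000129). Abcc9, the regulatory subunit of an ATP-sensitive potassium channel, was likewise higher at 1 month (1.61 ± 0.33, edgeR adjusted p = 0.00501), with -0.07 ± 0.42 at 3 months and a difference of -1.68 ± 0.54 (0.264), on 7 to 44 reads per library.

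Over all 1527 tested genes, the sign of the diet effect differed between times for 686. Of the 17 genes called higher at 1 month, 13 had a diet effect of the same sign at 3 months, as had all 11 called lower. Ehhadh, Lpin1 and Tmem189 had such an effect and a difference within 2 SE of 0. Ehhadh, an enzyme of peroxisomal fatty acid oxidation, held 1615 to 2516 CPM in chow and 3616 to 5106 CPM in HFCF livers of 1 month, and 899 to 1441 against 1599 to 2372 CPM at 3 months. Its diet effects were 1.11 ± 0.20 (edgeR adjusted p = 0.000721) and 0.72 ± 0.23 (0.0835), with a difference of -0.39 ± 0.31. Lpin1 had -1.18 ± 0.25 (edgeR adjusted p = 0.00501) and -1.29 ± 0.41 (0.0845), with a difference of -0.10 ± 0.45 whose sign turned in 5 of 22 alternative fits. Lpin1 was also lower at 3 months than at 1 month in both diets, by -1.82 ± 0.29 in chow (edgeR adjusted p = 5.4e-05) and -1.92 ± 0.36 in HFCF liver (0.000268). Tmem189, which makes plasmalogens, had 1.70 ± 0.37 (edgeR adjusted p = 0.00584) and 0.79 ± 0.46, with a difference of -0.92 ± 0.62 (0.687).

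Fatty acid oxidation genes, many of them targets of the receptor PPARA, numbered 21 tested. At 1 month 4 were called higher, Ehhadh, Ppara, Fabp1 and Acaa1b, against 1.11% of all genes. At 3 months 4 were called higher, Cd36, Vnn1, Fabp1 and Acaa1b, against 0.982%. Fabp1, the liver fatty acid binding protein, had 1.05 and 0.81, and Acaa1b, a peroxisomal thiolase, 0.97 and 1.22. Cd36, a fatty acid uptake receptor, had 0.84 at 1 month and 1.85 at 3 months, with a difference of 1.00 ± 0.52 (edgeR adjusted p = 0.550). The median difference was -0.11, with 15 of 21 values negative, and -0.06 without HFCF replicate 1 of 3 months.

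Opposite signs at both times, each with an unadjusted p under 0.05, were found for 3 of 1527 genes (0.196%), and 46 genes (3.01%) had the same sign. The 3 were Pitpnc1, a lipid transfer protein, Pck1, the rate-limiting enzyme of gluconeogenesis, and Zfp13, a zinc finger protein. Pck1 held 5473, 5598 and 6816 CPM in chow and 8321, 6969 and 7704 CPM in HFCF livers of 1 month, and 5403, 6647 and 5061 CPM against 4791, 3848 and 3688 CPM at 3 months. HFCF lay above chow at 1 month and below it at 3 months, each without overlap. Its diet effects were 0.36 ± 0.18 and -0.47 ± 0.18, neither called, and the difference was -0.84 ± 0.25 (edgeR adjusted p = 0.262). Pitpnc1 had 1.10 ± 0.46 and -1.18 ± 0.46 with a difference of -2.28 ± 0.65 (edgeR adjusted p = 0.207), and Zfp13 -1.11 ± 0.46 and 1.32 ± 0.56 with 2.42 ± 0.73 (0.262). Both rested on few reads, 4 to 16 for Pitpnc1 and 1 to 28 for Zfp13. Zfp13 was called without HFCF replicate 1 of 3 months (2.87, edgeR adjusted p = 0.00875).

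Fos, the immediate-early transcription factor, resembled Mir741 in that chow livers changed over time. It held 36.8, 266 and 126 CPM in chow and 153, 219 and 272 CPM in HFCF livers of 1 month. By 3 months it held 576, 518 and 646 CPM in chow and 92.1, 325 and 207 CPM in HFCF livers. The groups overlap at 1 month, and every HFCF liver lies below chow at 3 months. Chow rose between the times by 2.16 ± 0.39 (edgeR adjusted p = 0.00087), while HFCF livers differed by -0.10 ± 0.43. The diet effect was 0.76 ± 0.44 at 1 month and -1.50 ± 0.38 at 3 months (edgeR adjusted p = 0.0159), and the difference was -2.26 ± 0.59 (0.192), on 3 to 30 reads per library. Without chow replicate 2 of 1 month it was -3.09 and was called (edgeR adjusted p = 0.00582).

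Dnmt3a, a DNA methyltransferase targeted by the miR-29 family, was called higher at 3 months (1.64 ± 0.29, edgeR adjusted p = 0.000134). It had 0.62 ± 0.31 at 1 month and a difference of 1.02 ± 0.43 (edgeR adjusted p = 0.406). Saa1, the acute phase protein serum amyloid A, varied widely within groups. It held 1699, 1140 and 90.6 CPM in HFCF livers of 1 month and 20.97 to 463 CPM elsewhere, and its difference was -4.44 ± 1.94 (edgeR adjusted p = 0.509). Of 10 tested acute phase genes 1 was called, Serpina3n, lower at 3 months, against 1.57% of all genes. Among 23 tested cytochrome P450 genes, 1 was called, Cyp3a11, a drug-metabolising enzyme, lower at 1 month (-1.34, edgeR adjusted p = 0.00725), against 0.720% of all genes. HFCF replicate 3 stood at 1601 CPM and the other 2 at 588 and 592 CPM. Its diet effect was -0.21 at 3 months, and its difference was 1.13 ± 0.39 (edgeR adjusted p = 0.300). Among 33 tested plasma protein genes 1 was called at each time, Serpina1e, lower at both, against 0.720% and 1.57% of all genes. None of the tested genes of sterol synthesis (6), bile acids (14), protein folding stress (7), the circadian clock (5) or the mitochondrial genome (5) was called at either time or for the difference.

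**Figure D5:**
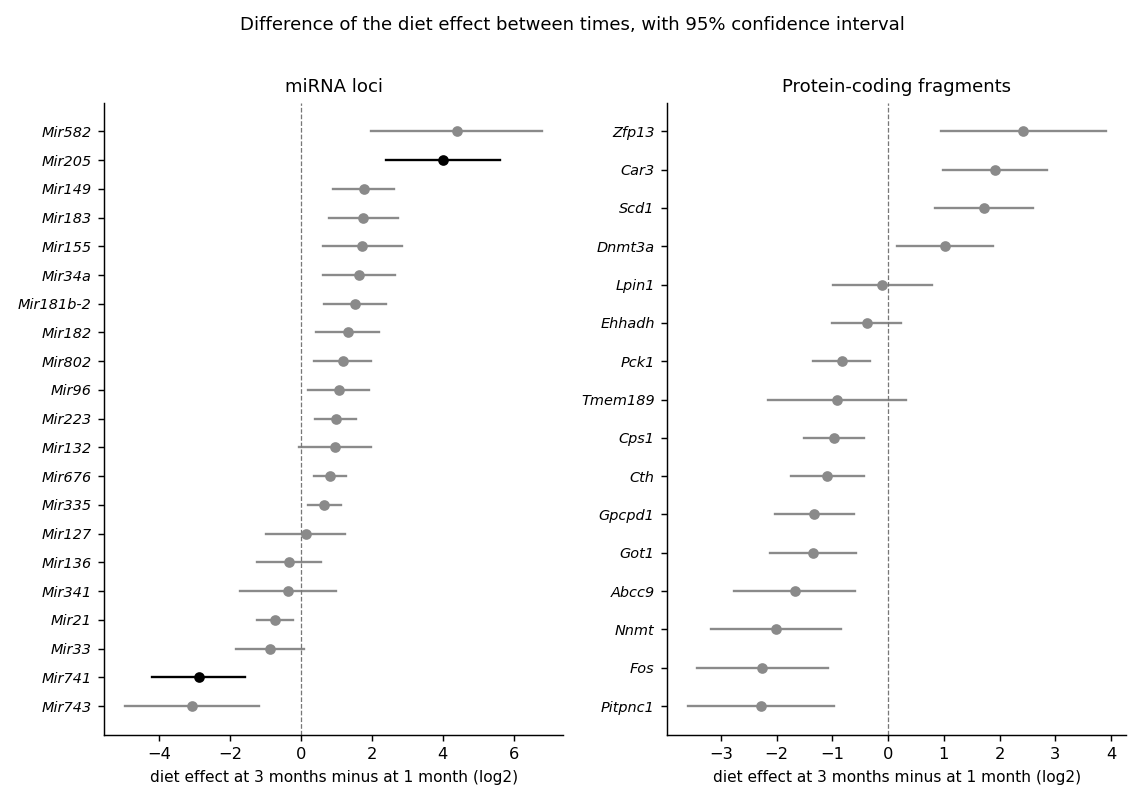
Difference of the diet effect between times (3 months minus 1 month, log2) for each named miRNA locus on the left and protein-coding fragment on the right; points are estimates and lines are 95% confidence intervals from edgeR. Black marks the called differences, Mir205 (4.01) and Mir741 (-2.89); grey marks those not called, many of which have an interval that does not reach 0 because the interval is not adjusted for the number of features.

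The plot of differences with their intervals shows what the design could resolve. Among miRNA loci, the interval spanned about 1 log2 unit for Mir676 (0.35 to 1.28) and Mir21 (-1.24 to -0.24), and was wider for Mir182 (0.43 to 2.21) and Mir582. Of the loci called at both times, Mir136 (-1.248 to 0.55) had an interval that did not exclude a difference of more than 1 log2 unit, and Mir434 (-0.98 to 0.93) had one that did.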

How the data were processed

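The deposited table holds whole-number read counts per gene, made by the authors before deposit; the genome build is mm10 per the submitters' processing notes (aligner and strand setting not given in the sources used here). Per the labels, the protocol names a small RNA kit and the design text a stranded total RNA kit; which was used was not settled. The 12 deposited FPKM columns were not used. Of 3717 genes, 3617 were matched by identifier to GENCODE M21, and 200 of 2965 protein-coding genes that overlap a small RNA gene were left out. The miRNA loci and protein-coding genes were fitted separately with edgeR 4.0.16 (R 4.3.3): filterByExpr with a count minimum of 10, TMM, robust quasi-likelihood fits with 1 mean per group over all 12 libraries, and Benjamini-Hochberg adjustment over the class. SE is the log2 value divided by the square root of F, and intervals are 95%. The design text calls the 3 libraries of a group biological replicates. Scripts were tested on simulated data.

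Named features were the called differences, filled up to 10 per class by the smallest p, then up to 5 each with opposite signs and with the smallest p at either time, and miRNAs fixed by name; other genes come from lists and were picked after their values were seen. Members and lists were chosen with earlier results of these data known. Alternatives were library totals, DESeq2 1.42.0, limma-voom (limma 3.58.1), other filters and feature sets, no robust estimation, a replicate block and leaving out each library. Some loci are not reported here.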

Additional observations from a re-analysis of the deposited data

Results flagged for a closer look

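The diet effect of 2 miRNA loci differed between the times by the test of the difference itself. Mir205 had a difference of 4.01 (edgeR adjusted p = 0.0326), and all 3 HFCF livers of 3 months lay above the other 9 libraries. Mir741 had a difference of -2.89 (edgeR adjusted p = 0.0436), with HFCF above chow in 3 of 3 livers at 1 month and below chow in 3 of 3 at 3 months. Each was called in 10 of 21 alternative fits.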

How the results depend on the processing

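The count of miRNA loci with a called difference, 2 with TMM and edgeR, was 26 with library totals (25 positive and 1 negative), 17 with DESeq2 (14 and 3), 0 with limma-voom and 1 with the whole table in 1 fit, and ran from 0 to 28 when single libraries were left out. For diet at 1 month the 7 called loci became 12 with DESeq2, 3 with the whole table and 4 with the 6 libraries of that time alone, and 3 to 24 without single libraries. For diet at 3 months the 52 called loci (20 higher and 32 lower) became 29 with the whole table (19 higher and 10 lower) and 77 with library totals (59 higher and 18 lower), and 20 to 70 without single libraries. Among protein-coding fragments the 0 called differences became 3 with limma-voom and 2 without robust estimation (Saa1 and Scd1), and 0 to 7 without single libraries. The 28 genes called at 1 month became 13 with DESeq2 and 8 with the whole table, and 12 to 36 without single libraries. The 39 called at 3 months became 19 with DESeq2, 25 with the whole table and 66 with that time alone, and 17 to 50 without single libraries. At an adjusted p under 0.1, 8 loci in place of 2 were late and 1 in place of 0 early. The cause of these shifts was not tested.

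Signs turned for 4 named features whose differences lie near 0. Mir136 was 0.00231 with library totals and Mir127 was -0.0478 with the whole table. Without single libraries Mir341 ran from -0.783 to 0.205, Mir127 from -0.335 to 0.485 and Lpin1 from -0.387 to 0.282. Of 790 values of named features under alternatives, 703 kept direction and call, 53 passed the threshold newly, 22 lost it and 12 turned sign.

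Libraries with the same replicate number showed no clear tendency to deviate together, so the numbers were not taken as pairs. For miRNA loci their median correlation was 0.00458 (-0.222 to 0.39), with 5 of 18 pairs over 0.1. For libraries with different numbers it was -0.00367 (-0.422 to 0.18), with 7 of 36 pairs over 0.1. For protein-coding fragments the ranges were -0.0468 to 0.106 and -0.0846 to 0.0979. With the replicate number as a block, 3 miRNA loci (adding Mir155) and 4 protein-coding genes (Fgl1, Car3, Saa1 and Scd1) had a called difference. The filter at 10 CPM in 3 libraries left the same protein-coding genes as no filter.

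Protein-coding fragments had 30880 to 100042 reads per library, and scarce loci such as Mir743 and Mir341 had few, so sizes there are imprecise.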
